A study of Homo sapiens with 6 samples.

Results

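The genes described here are 10 well-known targets of the hypoxia-inducible factors (HIF) outside glycolysis, CA9, VEGFA, ADM, BNIP3, NDRG1, EGLN3, ANKRD37, PDK1, P4HA1 and KDM3A, chosen by name from the 16720 named rows of the count table. All 10 have a row, and 8 passed the filter on low counts and were tested. EGLN3 and ANKRD37 did not pass. The study asked what RFX6, a winged helix transcription factor, does in hepatocellular carcinoma (HCC) cells, and sequenced RNA from Hep3B, an established human HCC cell line. There were 3 libraries of wild-type Hep3B cells carrying a control guide (sgControl) and 3 of RFX6-knockout Hep3B cells made with CRISPR/Cas9 (sgRFX6). Guides were delivered with Cas9 by lentivirus, cells were selected with puromycin and clones grown from single cells were expanded. How many clones the libraries represent is not stated, so clone and knockout cannot be told apart. The knockout columns all carry the name sg3, a guide that the study lists, so guide and knockout cannot be told apart either. No low-oxygen treatment is named for either group.

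The cellular response to low oxygen is carried by HIF, transcription factors made of an oxygen-sensitive alpha subunit (HIF1A or EPAS1) and a constant partner (ARNT). In the presence of oxygen, prolyl hydroxylases of the EGLN family mark the alpha subunit, and the VHL ubiquitin ligase has it degraded. When oxygen falls, the protein persists, enters the nucleus and binds the hypoxia response element, whose core reads ACGTG or GCGTG. Much of this control acts on the protein, so the transcript levels of the HIF subunits do not measure HIF activity. Besides glycolysis, the response covers acid handling, blood vessel growth, mitophagy, pyruvate entry into mitochondria, collagen processing and histone demethylation, and in HCC it is known for its part in angiogenesis.

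The libraries held 16730374 to 25070770 counts, so 3 counts, taken as the background, correspond to 0.122 to 0.189 CPM (counts scaled to a common library size of 1e+06 with TMM factors). The study asks for independent repeats of its experiments in general, but for these libraries it is not stated whether the 3 of a group were separate cultures, and p-values measure only the spread between them. The target transcript RFX6 had 5.64, 5.83 and 7.34 CPM in sgControl and 3.43, 3.71 and 3.50 CPM in sgRFX6, a log2 ratio, sgRFX6 over sgControl, of -0.82 (standard error 0.26, edgeR adjusted p = 0.142). RFX6 was called lower in 2 of 15 alternatives, limma-voom (adjusted p = 0.00274) and edgeR with the GC trends removed (adjusted p = 0.0459). The study checked its knockout by western blotting and real-time PCR, and RFX6 protein was not measured here. Among 10 liver genes fixed as markers, the transcription factor HNF4A was well expressed, with 109 CPM or more in every library, whereas TTR stayed below 1 CPM in every library, albumin (ALB) was between 12.9 and 32.1 CPM and the list went both ways. AFP, a fetal liver gene, rose from 1.58 to 2.31 CPM in sgControl to 9.98 to 17.2 CPM in sgRFX6, and the fibrinogen gene FGB fell from 22.4 to 34.4 CPM to 3.39 to 6.45 CPM (edgeR adjusted p = 0.00254 and 0.00417). APOB had a log2 ratio of -1.29 with no overlap between the groups (edgeR adjusted p = 0.116). Of 10 markers of other cell types, the collagen genes COL1A1 and COL1A2 fell, from 4.78 to 5.45 and 1.82 to 1.93 CPM to at most 1.70 and 0.182 CPM (edgeR adjusted p = 0.0108 and 0.00276), and PTPRC and VWF stayed below 1 CPM in every library. KRT19 was at 407 to 956 CPM, CD68 at 61.0 to 157 CPM and the endothelial gene PECAM1 at 11.4 to 13.0 CPM in sgControl and 13.2 to 19.3 CPM in sgRFX6 (edgeR adjusted p = 0.401). All libraries were made from the Hep3B line, so these levels do not measure a share of other cell types.

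The core of the hypoxia response element, the sequence that HIF binds, was looked for in the 250 bases before the annotated start. Sites outside these bases were not searched. RefSeq promoter windows on GRCh38.p14 were matched for 8 of the 10 genes, all but VEGFA and NDRG1. The core, ACGTG or GCGTG on either strand (written CACGT or CACGC when it lies on the other strand), was present in 7 of the 8 genes. These have 10 windows, since PDK1 and KDM3A have 2 starts each, and 8 of the 10 windows held a core, against 43.2% of all 35116 windows of the same length. Both windows of KDM3A hold the same match, a GCGTG, which therefore counts 2 times among these 8. ACGTG itself was present in 5 of the 10 windows, none of them of KDM3A, against 18.5% of all windows. EGLN3 had no match in its window, and of the 2 starts of PDK1 only the one further downstream had any. The stretches that hold the matches are shown 5′ to 3′ on the gene's own strand, with the core in capitals and 20 bases on each side where the start allows. Where CACGTG is read from both strands, the 2 matches overlap.
CA9 (chr9:35673890-35673927, forward strand): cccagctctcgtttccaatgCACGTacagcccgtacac
P4HA1 (chr10:73096928-73096972, reverse strand): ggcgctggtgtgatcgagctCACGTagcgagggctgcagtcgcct
BNIP3 (chr10:131982003-131982086, reverse strand): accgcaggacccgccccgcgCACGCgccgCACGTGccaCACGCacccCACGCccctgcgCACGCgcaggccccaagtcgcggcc
ANKRD37 (chr4:185396659-185396722, forward strand): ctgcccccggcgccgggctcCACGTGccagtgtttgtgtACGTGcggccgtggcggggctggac
PDK1 (chr2:172556053-172556089, forward strand): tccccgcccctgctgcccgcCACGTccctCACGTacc
ADM (chr11:10304952-10304996, forward strand): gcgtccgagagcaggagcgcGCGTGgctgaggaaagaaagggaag
KDM3A (chr2:86441325-86441369, forward strand): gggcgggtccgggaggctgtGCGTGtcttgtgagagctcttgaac
In CA9 the core begins 18 bases before the start, in P4HA1 86 bases before it, and in BNIP3 6 matches lie between 143 and 104 bases before it. A match of these letters is a description of the sequence, and binding was not measured here.

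None of the 8 tested hypoxia-inducible genes passed the test between sgRFX6 and sgControl. With edgeR's quasi-likelihood test, 0 of 8 had an adjusted p-value under 0.05, against 3.74% of all 12839 tested genes (1.81% lower and 1.92% higher in sgRFX6), and 0 of 8 had an unadjusted p-value under 0.05, against 15.6%. DESeq2 and limma-voom also called 0 of the 8, where over all tested genes they called 895 and 3998, against 480 with edgeR. With 8 genes, a count of 0 is near the edgeR share of 3.74%, whereas limma-voom called a larger part of all tested genes. The edgeR intervals below give the differences that the libraries leave possible. No gene of the 8 separated the 3 sgRFX6 from the 3 sgControl libraries, where 23.1% of all tested genes did so, 11.2% lower and 12% higher in sgRFX6. In bulk RNA, fewer expressing cells and less RNA per cell cannot be told apart. In 6 of the 8 the log2 ratio was negative and in 2 positive, with a median log2 ratio of -0.16 against 0.02 over all tested genes.

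**Figure D1:**
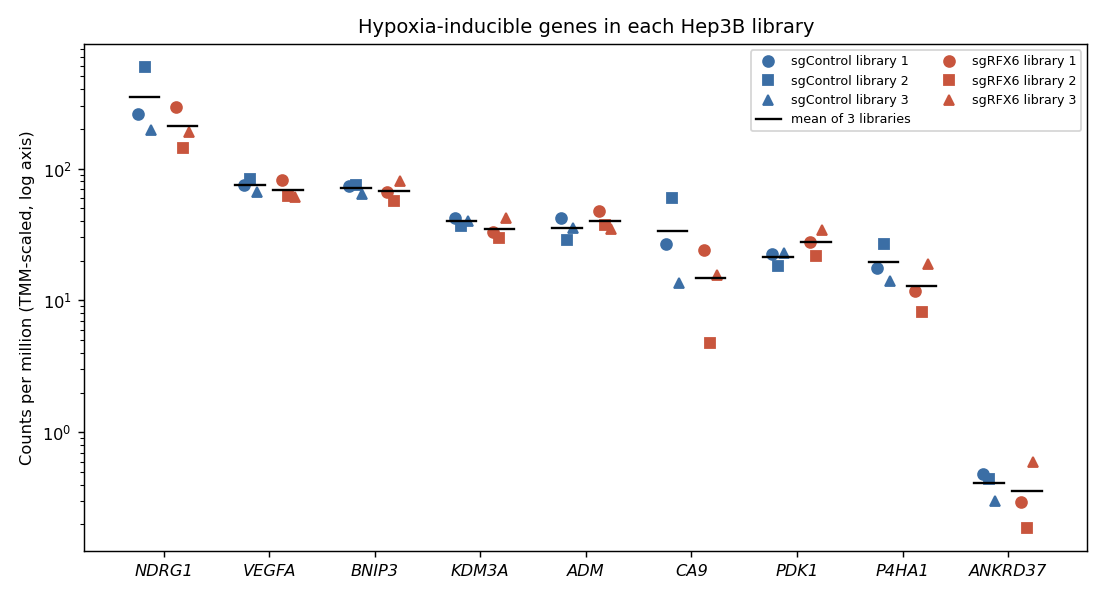
TMM-scaled CPM, on a log axis, of 9 hypoxia-inducible genes in each of the 3 sgControl (blue) and 3 sgRFX6 (red) Hep3B libraries, with a black bar at each mean (EGLN3, at 0 counts in 1 library, is left out). The groups overlap for every gene, and of the 8 tested genes CA9, NDRG1 and P4HA1 spread most within a group.

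CA9 encodes carbonic anhydrase 9, the membrane enzyme that hydrates carbon dioxide outside the cell and is a standard marker of hypoxic tumour cells. It lies at chr9:35673856-35681159 (GRCh38) and was measured at 27.0, 59.5 and 13.6 CPM in sgControl libraries 1, 2 and 3 and at 24.1, 4.78 and 15.5 CPM in sgRFX6 libraries 1, 2 and 3. The highest value was that of sgControl library 2 and the lowest that of sgRFX6 library 2, and the other 4 values lay between 13.6 and 27.0 CPM. The means were 33.3 ± 23.6 and 14.8 ± 9.70 CPM (SD, n = 3 each), a log2 ratio of -1.17 with a 95% interval from -2.59 to 0.25 (edgeR adjusted p = 0.432).
Each group thus spanned more than the difference between their means. The highest sgControl library exceeded the lowest by 4.37-fold and the highest sgRFX6 library exceeded the lowest by 5.05-fold. Only 0.693% of all tested genes had a wider log2 range than CA9 among the sgControl libraries, and 1.12% among the sgRFX6 libraries. With 1 library left out, the log2 ratio ran from -1.71 (without sgRFX6 library 1) to -0.45 (without sgControl library 2), and it was -0.76 without sgRFX6 library 2. Neither end passed the test, and without library 2 of both groups, chosen after the values were seen, it was -0.04 (edgeR adjusted p = 0.983).

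Neither secreted factor passed the test. VEGFA, the main growth factor for blood vessels (chr6:43770184-43786487), had 75.4, 83.0 and 65.8 CPM in sgControl and 82.2, 62.2 and 60.7 CPM in sgRFX6. The ranges of the groups overlapped over most of their width, and the log2 ratio was -0.13 (95% interval -0.56 to 0.30, edgeR adjusted p = 0.841). ADM, which encodes the vasodilator peptide adrenomedullin (chr11:10304680-10307397), had 42.2, 28.7 and 35.3 CPM in sgControl and 47.4, 37.1 and 34.6 CPM in sgRFX6, a log2 ratio of 0.17 (95% interval -0.34 to 0.67, edgeR adjusted p = 0.820). The 50 tested genes nearest to ADM had a median of 0.32.

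The receptors through which these peptides act on endothelium were nearly absent. KDR had 2 counts over the 6 libraries, and the adrenomedullin receptor genes CALCRL and RAMP2 had at most 1 and 4 counts in a library. FLT1 and RAMP3 have no row. Of the VEGFA co-receptors, the neuropilins, NRP1 was measured at 105 to 108 CPM in sgControl and at 72.6 to 111 CPM in sgRFX6 (log2 ratio -0.24, edgeR adjusted p = 0.630). NRP2 fell, from 29.5, 49.8 and 28.3 CPM to 13.1, 15.3 and 13.9 CPM, with every sgRFX6 library below every sgControl library (log2 ratio -1.35, standard error 0.27, edgeR adjusted p = 0.0274). This call was lost without sgControl library 3, sgRFX6 library 1 or sgRFX6 library 2, with edgeR adjusted p-values of 0.0684, 0.122 and 0.0684.
The VEGFA relatives did not pass the edgeR test. Placental growth factor (PGF) had a log2 ratio of -1.41 (edgeR adjusted p = 0.0897) and VEGFB one of 0.79 (edgeR adjusted p = 0.124), with no overlap between the groups for either. Each was called in 4 of 15 alternatives, among them DESeq2 (adjusted p = 0.00697 and 0.0481), limma-voom (0.00156 and 0.000217) and edgeR with the GC trends removed (0.0144 and 0.00925). For the 50 tested genes nearest to VEGFB the median was 0.42. VEGFC had at most 1 count in a library.

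BNIP3 encodes a mitochondrial outer membrane protein that recruits the autophagy machinery and so removes mitochondria under hypoxia. The gene lies at chr10:131966455-131982013 and had 74.1, 75.5 and 64.4 CPM in sgControl and 65.9, 56.3 and 79.8 CPM in sgRFX6. The highest and the lowest values were both in sgRFX6, and the log2 ratio was -0.08 (95% interval -0.51 to 0.34, edgeR adjusted p = 0.907). Its relative BNIP3L, with the same function, had a log2 ratio of 0.10 (edgeR adjusted p = 0.936).
PDK1, pyruvate dehydrogenase kinase 1, phosphorylates pyruvate dehydrogenase and thereby keeps pyruvate out of the TCA cycle. It was the gene with the larger of the 2 positive values. It lies at chr2:172555373-172608669, and its levels were 22.6, 18.2 and 22.7 CPM in sgControl and 27.6, 21.7 and 34.2 CPM in sgRFX6. Only sgRFX6 library 2 reached into the sgControl range, and the log2 ratio of 0.40 (95% interval -0.14 to 0.93, edgeR adjusted p = 0.490) did not pass the test. Of its relatives PDK2, PDK3 and PDK4, none was called, and the enzyme subunit gene PDHA1 had a log2 ratio of -0.27 (edgeR adjusted p = 0.450).

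NDRG1, a stress-responsive gene linked to differentiation and to suppression of metastasis, was the most abundant of the 10 in CPM. It had 259.8, 588 and 195 CPM in sgControl and 294, 144 and 189 CPM in sgRFX6. As in CA9, library 2 was the highest of sgControl and the lowest of sgRFX6. The means were 348 ± 211 and 209 ± 77.0 CPM (SD, n = 3 each), and the log2 ratio was -0.73 (95% interval -1.68 to 0.21, edgeR adjusted p = 0.463). With 1 library left out it ran from -1.06 (without sgRFX6 library 1) to -0.12 (without sgControl library 2), and it was 0.08 without library 2 of both groups and 0.16 with limma-voom and sample quality weights. Its relatives went both ways, and none was called. NDRG3 had a log2 ratio of -0.52 (edgeR adjusted p = 0.231) with no overlap between the groups. NDRG2 and NDRG4 had log2 ratios of 0.15 and 0.16 (edgeR adjusted p = 0.894 and 0.878) with overlapping groups.

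P4HA1 encodes the catalytic subunit of the prolyl 4-hydroxylase that modifies collagen in the endoplasmic reticulum. It lies at chr10:73007217-73096974 and had 17.5, 27.0 and 13.99 CPM in sgControl and 11.8, 8.11 and 18.9 CPM in sgRFX6. Library 2 was again the highest of the first group and the lowest of the second, and the log2 ratio was -0.59 (95% interval -1.41 to 0.24, edgeR adjusted p = 0.513). With 1 library left out it ran from -0.97 (without sgRFX6 library 3, edgeR adjusted p = 0.135) to -0.28 (without sgControl library 2), with -0.35 without sgRFX6 library 2, and without library 2 of both groups it was -0.04. P4HA2 (-0.18) and the beta subunit P4HB (-0.03) had log2 ratios closer to 0, with edgeR adjusted p-values of 0.757 and 0.966, and P4HA3 had at most 2 counts in a library.
KDM3A, a histone H3 lysine 9 demethylase gene at chr2:86440647-86492716, had 42.5, 36.8 and 39.98 CPM in sgControl and 32.8, 29.7 and 42.3 CPM in sgRFX6. Library 3 of sgRFX6 lay at the upper end of the sgControl range and the other 2 below it. The log2 ratio was -0.18 (95% interval -0.65 to 0.28, edgeR adjusted p = 0.764), and its paralogue KDM3B had one of 0.01 (edgeR adjusted p = 0.986).

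The 2 remaining genes were near the background. EGLN3, the prolyl hydroxylase that HIF induces as a feedback, was counted 5, 2 and 2 times in sgControl and 0, 1 and 2 times in sgRFX6, so a difference was not detectable at this depth. A count of 0 in sgRFX6 library 1 allows up to 0.149 CPM. ANKRD37, a small ankyrin repeat protein gene, was counted 10, 11 and 7 times in sgControl and 6, 3 and 13 times in sgRFX6, with overlapping groups. Fitted without the filter on low counts, ANKRD37 had a log2 ratio of -0.15 (standard error 0.60, edgeR adjusted p = 0.948). Per length, NDRG1 was the highest of the 10 genes in the sgControl mean level and EGLN3 the lowest, with 35.4 and 0.0185 CPM per kilobase of annotated exons, and this held with the median length of coding transcripts.

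**Figure D2:**
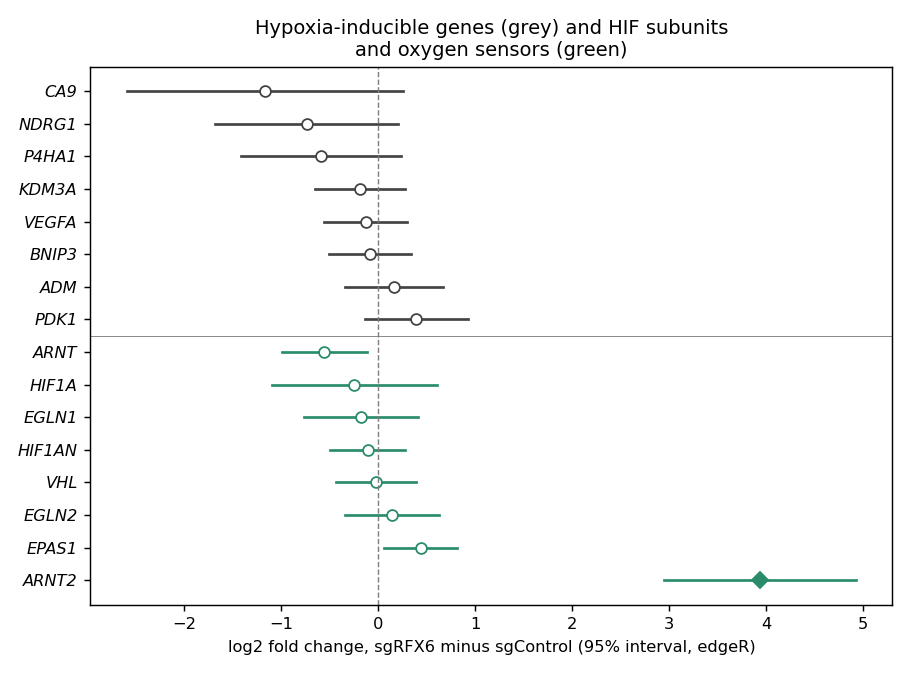
Log2 ratio, sgRFX6 minus sgControl, with its 95% interval from edgeR for the 8 tested hypoxia-inducible genes (grey) and 8 HIF subunits and oxygen sensors (green), with a filled diamond for an adjusted p-value under 0.05. All 8 grey intervals include 0, those of CA9, NDRG1 and P4HA1 being the widest, and ARNT2 is the only filled symbol.

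CA9, NDRG1, P4HA1 and BNIP3 shared a pattern over the libraries. In these 4 of 8 genes sgControl library 2 was the highest sgControl library and sgRFX6 library 2 the lowest sgRFX6 library, which was the case for 11.0% of all tested genes. The pattern was noticed in the values and was not tested. In BNIP3 it was slight, 75.5 against 74.1 CPM at the top of sgControl. Over all tested genes, sgControl library 2 was the highest of its group in 40.9% and sgRFX6 library 2 the lowest in 36.1%.
These were also the deepest library, with 25070770 counts, and the shallowest, with 16730374. Spearman correlations across genes between a library's deviation in log2 CPM and the GC content of the transcript were -0.41, 0.37 and 0.10 in sgControl libraries 1, 2 and 3 and 0.43, 0.54 and -0.75 in sgRFX6 libraries 1, 2 and 3, so that sgRFX6 library 1 leaned the same way as both libraries numbered 2. The part of depth in the pattern was not tested. With the GC trends removed, the log2 range of CA9 was 1.89 in sgControl and 2.36 in sgRFX6, against 2.12 and 2.31 before, and that of NDRG1 was 1.48 and 1.03, against 1.59 and 1.03. For P4HA1 and KDM3A the sgRFX6 range shrank from 1.21 to 0.46 and from 0.51 to 0.07, whereas the sgRFX6 range of BNIP3 widened from 0.50 to 0.73 and the sgControl range of ADM from 0.56 to 0.89.

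**Figure D3:**
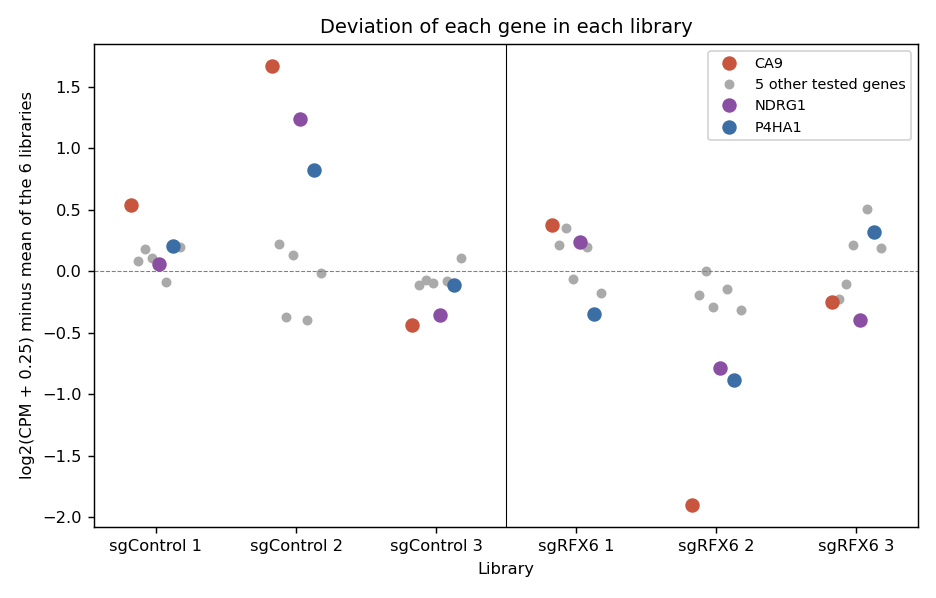
Deviation of log2(CPM + 0.25) from the mean of the 6 libraries for the 8 tested hypoxia-inducible genes, by library, with CA9, NDRG1 and P4HA1 in colour and the other 5 in grey. The 3 coloured genes are all high in sgControl 2 and all low in sgRFX6 2.

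**Figure D4:**
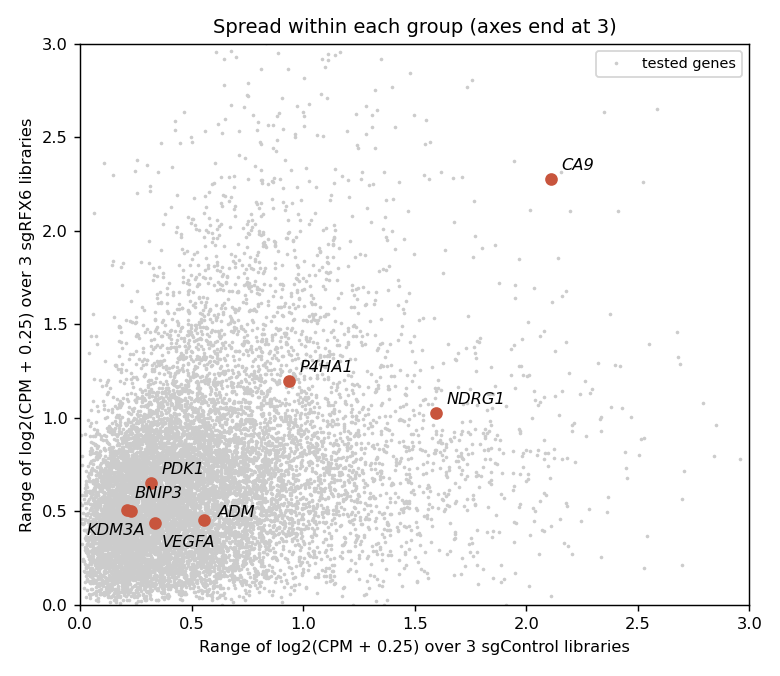
Range of log2(CPM + 0.25) over the 3 sgControl libraries (horizontal) and over the 3 sgRFX6 libraries (vertical) for all tested genes (grey dots, 48 of them beyond the axes) and the 8 hypoxia-inducible genes (red). CA9 lies at 2.11 and 2.28, further out than the other 7 genes.

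Among the HIF subunits and oxygen sensors, 1 of the 8 tested genes was called. ARNT2, a paralogue of ARNT best known from neural tissue, rose from 6, 4 and 6 counts in sgControl to 98, 58 and 56 counts in sgRFX6 (log2 ratio 3.94, standard error 0.44, edgeR adjusted p = 0.00251), and it was called in all 15 alternatives. Even so, its sgRFX6 level of 2.54 to 4.87 CPM was far below the 56.0 to 70.4 CPM of ARNT in the same libraries.
EPAS1 and ARNT separated the groups without passing the test. EPAS1, which encodes HIF-2 alpha, had 105, 116 and 100.3 CPM in sgControl and 168, 134 and 134 CPM in sgRFX6 (log2 ratio 0.44, edgeR adjusted p = 0.230), and limma-voom gave 0.64 with an adjusted p of 0.00114. ARNT had 85.6, 113 and 79.7 CPM in sgControl and 70.4, 56.0 and 63.3 CPM in sgRFX6 (log2 ratio -0.55, edgeR adjusted p = 0.188), and with the GC trends removed -0.58 (edgeR adjusted p = 0.0445).
HIF1A had 86.8, 62.9 and 70.4 CPM in sgControl and 39.98, 39.3 and 106 CPM in sgRFX6, where library 3 was the highest of all 6 and the other 2 the lowest. Its log2 ratio was -0.25 (edgeR adjusted p = 0.847), and without sgRFX6 library 3 it was -0.88 (edgeR adjusted p = 0.0327). With the GC trends removed it was -0.50 (edgeR adjusted p = 0.0410) and with limma-voom -0.84 (adjusted p = 0.00196). The sensors EGLN1, EGLN2, HIF1AN and VHL had log2 ratios of -0.18, 0.15, -0.11 and -0.02, with edgeR adjusted p-values between 0.839 and 0.975. With limma-voom EGLN1 was at -0.52 (adjusted p = 0.0103). HIF3A, at 2 to 19 counts, was not tested.

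Of 28 further hypoxia-responsive genes outside glycolysis, 25 have a row and 24 were tested. In the main edgeR fit none was called, against 3.74% of all tested genes. An unadjusted p-value under 0.05 was reached by 4 of the 24, against 15.6% of all tested genes. These 4 had positive values, where over all tested genes 1107 such values were positive and 893 negative. The median log2 ratio of the list was -0.01. Among the genes with the largest absolute log2 ratios were RORA (-1.16, edgeR adjusted p = 0.386), which encodes a nuclear receptor, and TF (1.05, edgeR adjusted p = 0.189), which encodes transferrin. EPO, the hormone gene for which Hep3B is a classical hypoxia model, had 1, 2 and 0 counts in sgControl and 0 in each sgRFX6 library.
Among 24 paralogues, receptors and partners of the 10 genes, 17 were tested, of which CA2 was called higher and NRP2 lower. CA2, the cytosolic carbonic anhydrase, rose from 22.6, 19.3 and 19.9 CPM to 38.8, 42.1 and 45.4 CPM (log2 ratio 1.03, standard error 0.19, edgeR adjusted p = 0.0206). The log2 ratio of CA9 was negative but did not pass the test. The call of CA2 was kept in 1 of the 6 fits that left out a library, that without sgRFX6 library 3, and the edgeR adjusted p-values lay between 0.0194 and 0.119. CA12, a membrane isoform like CA9, had a log2 ratio of 0.50 (edgeR adjusted p = 0.192) with no overlap between the groups.
In the 20 hypoxia-responsive genes of glycolysis, set beside for contrast, 19 were tested and 1 was called, the glucose transporter gene SLC2A3, which fell from 816, 681 and 1161 counts to 0, 0 and 2 counts. The median log2 ratio of this list was -0.19. PGK1 (0.66) and HK1 (-0.74) had the next strongest evidence, with edgeR adjusted p-values of 0.0774 and 0.0792, and the median over the 50 tested genes nearest to PGK1 was 0.45.

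**Figure D5:**
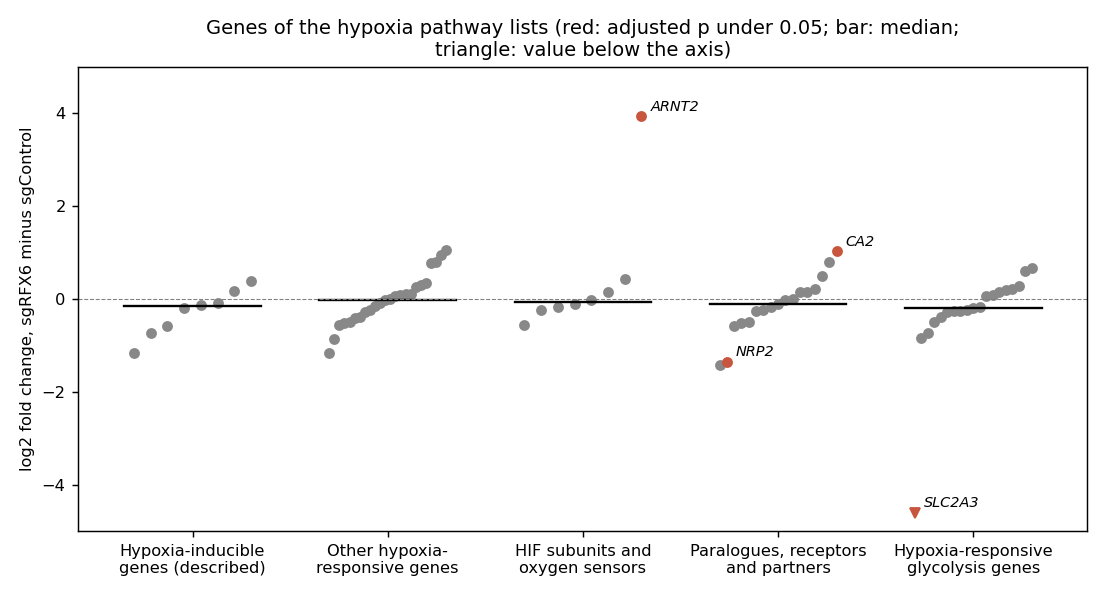
Log2 ratio, sgRFX6 minus sgControl, of each tested gene in 5 lists of the hypoxia pathway, with red for an adjusted p-value under 0.05 from edgeR and a black bar at the median of the list (SLC2A3, a triangle, lies below the axis). The medians lie between -0.19 and -0.01, and 4 genes are red, none of them among the 8 tested hypoxia-inducible genes.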

How the data were processed

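RNA was measured in 3 sgControl and 3 sgRFX6 Hep3B libraries. The authors deposited raw counts per gene name, made from Illumina sequencing of cDNA from total RNA. The submitters' processing notes list GRCh38 and hg38. The aligner, the counting program, its strand setting and the annotation are not given in the sources used here. Control columns are named cas and were taken as sgControl, the only control group. Knockout columns are named sg3 and were taken as sgRFX6. A row without a gene name, at most 9.17e-05% of a library, was left out.

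Counts were tested with edgeR 4.0.16 in R 4.3.3 (filterByExpr with a minimum count of 10, TMM, quasi-likelihood test over all 6 libraries, no covariates, Benjamini-Hochberg adjustment over 12839 genes, threshold 0.05). Standard errors came from the log2 ratio and the F statistic. The two-sided exact permutation test of CPM gave p of 0.3 to 0.7 for the 10 genes, 0.1 being the smallest p possible with 3 against 3 libraries. DESeq2 1.42.0, limma-voom (limma 3.58.1), RLE factors, library size only, other filters, a block for the replicate number, leaving out each library and removal of each library's trend with GC content (loess span 0.3) were alternatives. Libraries of a group differed beyond sampling noise (chi-square over degrees of freedom, 16.9 to 122). GC content, positions and lengths came from GENCODE 29 on GRCh38, where 15422 rows matched by name. The edgeR fit was tested on simulated data. Floors cover counting error only. The genes and lists were chosen with earlier results of these data known. The genes named are the 10 genes, RFX6, the HIF subunits and sensors, and from each other list the called genes and the 3 with the largest absolute log2 ratio among the rest, and others were named after their values were seen. Some genes that this rule names are not reported here.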

Additional observations from a re-analysis of the deposited data

How the results depend on the processing

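None of the 8 tested hypoxia-inducible genes was called under any of 15 alternatives, 1 of them, the fit without library 2 of both groups, chosen after seeing the data. The lowest adjusted p-value of any of them was 0.0528, for KDM3A with limma-voom. CA9, ADM, PDK1, P4HA1 and KDM3A kept their sign. VEGFA was at 0.16 with limma-voom and 0.012 without library 2 of both groups, NDRG1 at 0.16 and 0.083, VHL at 0.11 with limma-voom and 0.0062 with a minimum of 1 CPM in 3 libraries, and PDK4 at 0.092 with limma-voom. Without library 2 of both groups, BNIP3 was at 0.068, EGLN2 at -0.12 and PDK4 at 0.61. With 1 library left out, the log2 ratio ran from -0.22 to 0.022 for BNIP3, from -0.15 to 0.074 for VHL, from -0.043 to 0.34 for EGLN2 and from -1.001 to 0.37 for PDK4.

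Over all tested genes, 480 were called, against 895 with DESeq2, 3998 with limma-voom, 1352 with the GC trends removed, 315 without library 2 of both groups and 212 to 718 with 1 library left out. The wider hypoxia lists had 8 tested HIF subunits and sensors, 24 further hypoxia-responsive genes, 17 paralogues, receptors and partners and 19 glycolysis genes. Together 4 of these were called, where the share over all tested genes was 3.74%. Under the same 4 alternatives the lists had 11, 26, 12 and 2 calls, and 2 to 10 with 1 library left out. Under these 4 alternatives both counts moved in the same direction. The cause was not tested.

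The deviations of same-numbered libraries of the 2 groups had correlations of -0.41, 0.17 and -0.09 over genes. Between differently numbered libraries the correlations ran from -0.45 to 0.57. Such values cannot show whether same-numbered libraries were prepared together, which is not stated. With the replicate block, 648 genes, 6 of the wider lists and 0 of the 8 hypoxia-inducible genes were called. At these depths EGLN3, ANKRD37, EPO and the endothelial receptor genes were too low to compare.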

Other observations

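The pattern of CA9, NDRG1 and P4HA1, highest in sgControl library 2 and lowest in sgRFX6 library 2, was looked for in the other lists after it had been noticed. It was present in 6 of 24 further hypoxia-responsive genes (25%), BNIP3L, ANGPTL4, LOX, MXI1, PPP1R3C and RORA, against 11.0% of all tested genes. In sgRFX6 library 2, RORA had 2 counts, within the background, and LOX had 9. PPP1R3C was at 6.35 CPM there, against 6.68 CPM in sgRFX6 library 3. The pattern was also present in 2 of 10 liver markers, 1 of 8 markers of other cell types and 1 of 8 HIF subunits and sensors. Of the paralogues, receptors and partners 2 of 17 had it, and of the hypoxia-responsive glycolysis genes 0 of 19. ANGPTL4, a lipoprotein lipase inhibitor, had 7.71, 24.7 and 7.08 CPM in sgControl and 13.5, 2.83 and 5.22 CPM in sgRFX6. MXI1, a MYC antagonist, had 19.8, 31.6 and 16.4 CPM in sgControl and 19.4, 12.5 and 18.8 CPM in sgRFX6. PDK4, another pyruvate dehydrogenase kinase, had 3.95, 13.3 and 3.11 CPM in sgControl and 4.02, 2.77 and 6.81 CPM in sgRFX6.

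The glycolysis gene ALDOC was high in sgControl library 2 without being lowest in sgRFX6 library 2, with 18.7, 47.5 and 17.4 CPM in sgControl and 18.5, 16.4 and 11.7 CPM in sgRFX6. These genes were named after their values were seen, and no explanation was tested.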
